A study of Mus musculus with 11 samples.

Results

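The genes described here carry tryptophan to NAD through kynurenine. They are Tdo2, Afmid, Kmo, Kynu, Haao, Acmsd and Qprt, 7 of the 15061 genes in the deposited table, and 6 of the 7 passed the filter on low counts, with Acmsd left out by it. They were chosen by gene name, with measured values in view: Tdo2 was low in one mutant group and Haao was high in the other, each against control. For that reason the members' differences between groups are given as descriptions, with no p-value.

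Bulk RNA sequencing was done on whole mouse yolk sac at embryonic day 9.5, in 11 libraries. The 4 controls had the genotype Hand1 fx/+, with 1 floxed Hand1 allele and no Cre named in the labels. The descriptions of the controls name them WT, and the genotype label was used. The 3 H1CKO libraries had the genotype T-Cre +/-; Hand1 fx/fx, in which Cre comes from the T (Brachyury) gene's regulatory sequence, active in the primitive streak and the mesoderm it gives rise to. The description of these libraries names a knockout allele over a floxed allele instead, and the genotype field was used. The 4 H1H2H2 libraries had the genotype Hand1 H2/H2, in which both Hand1 alleles are Hand2 replacement alleles, and no Cre is named. Since Cre is named in the H1CKO group alone, effects of Cre and of Hand1 loss cannot be told apart. Whether libraries came from separate embryos is not stated, so the errors below measure the spread between these libraries, and control 1 and control 2 have 1 yolk sac number between them in the descriptions.

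Libraries held between 12.02 and 16.82 times 1e+06 reads assigned to genes. Hand1, the targeted gene, had 31.1 to 91.1 CPM (reads scaled to a library of 1e+06) in control, 5.95 to 10.8 in H1CKO and 4.35 to 15.2 in H1H2H2. Hand2, the gene carried by the replacement allele, measured 81, 23.6, 35.9 and 33.7 CPM in H1H2H2 8 to 11, against 31.7 to 47.2 in control and 70.5 to 91.8 in H1CKO. Its log2 difference from control was 0.08 in H1H2H2 (SE 0.3, adjusted p = 0.873, edgeR's quasi-likelihood test), so no gain of Hand2 RNA was detected in that group, and it rose by 0.93 in H1CKO (SE 0.319, adjusted p = 0.0273). Visceral endoderm markers were high in every library, and their summed level was 40500 to 47000 CPM in control, 10400 to 17800 in H1CKO and 48500 to 51800 in H1H2H2. Cardiac muscle markers, which belong to the embryo, summed to 25.6 to 95.4 CPM in control, 1640 to 4080 in H1CKO and 20.5 to 46.3 in H1H2H2. The sexes were unequal, with 1 male among the controls, 3 among the H1CKO libraries and 3 among the H1H2H2 libraries. Control 2 and H1CKO 5 stood apart in trophoblast genes, with 85.5 and 43.4 CPM of Prl3d1, a placental lactogen gene, and H1H2H2 9 had 20, against 0 to 4.33 in the other libraries. Parietal endoderm markers summed to 17860 CPM in control 2 and 13570 in H1H2H2 9, against 3413 to 4345 in the rest. H1CKO 5 also held 11 CPM of Xist, the RNA of the inactive X chromosome, where H1CKO 6 and 7 held 0.305 and 0.534. H1H2H2 8 stood apart from its group in Hand2 and in the number of genes called against control, which was 2443 with it and 5055 without it.

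Tryptophan is broken down mainly by opening its indole ring. Tryptophan dioxygenase, the product of Tdo2, is a haem enzyme that makes N-formylkynurenine, and Afmid, a formamidase, releases kynurenine from it. Kmo hydroxylates kynurenine at the outer mitochondrial membrane, Kynu cuts the product with vitamin B6 as cofactor, and Haao opens the ring of 3-hydroxyanthranilate to give the precursor of quinolinate. Acmsd removes that intermediate from the route to NAD, and Qprt turns quinolinate into nicotinic acid mononucleotide, from which NAD is made. In adult mammals the whole route runs in hepatocytes, and visceral yolk sac endoderm shares many genes with liver before the liver forms.

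In control yolk sac the transcripts of every step were found, at unequal levels. Per kilobase of transcript, Qprt was highest at 50.3 ± 4.85 CPM (SD, n = 4). Kmo followed at 16.1 ± 1.12 and Tdo2 at 15.4 ± 2.78 CPM per kilobase, which did not differ beyond their spread. Haao stood at 6.93 ± 0.757 and Kynu at 5.54 ± 0.841 CPM per kilobase, with overlapping libraries. Afmid was lower, at 3.77 ± 0.747 CPM per kilobase. Acmsd, the enzyme of the branch away from NAD, was last at 0.172 ± 0.0944 CPM per kilobase. It had 1 to 8 reads per library in control, 2 to 3 in H1CKO and 0 to 9 in H1H2H2, and no difference in Acmsd was detectable at this depth.

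The order changed between groups. In H1CKO Qprt remained highest, at 17.6 ± 1.70 CPM per kilobase (SD, n = 3), and Kmo, Afmid, Haao, Tdo2 and Kynu followed between 3.12 and 1.49. The place of Tdo2, at 1.63 ± 2.01, rested on H1CKO 5 at 3.94 CPM per kilobase. In H1CKO 6 and 7 it was 0.468 and 0.467, the lowest of the tested members. In H1H2H2 Qprt led at 59.2 ± 4.95 CPM per kilobase (SD, n = 4), and Haao came next at 27.8 ± 8.95. Kmo at 18.4 ± 1.94 CPM per kilobase overlapped with Haao, and Tdo2, Kynu and Afmid followed at 9.31 ± 0.638, 7.03 ± 1.34 and 2.86 ± 0.463. Haao thus stood behind Qprt, Kmo and Tdo2 in control and behind Qprt alone in H1H2H2.

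The 7 genes lie apart in the genome, with Kmo and Acmsd sharing chromosome 1 of mm10 at a distance. Tdo2 spans chr3:81958414-81975728 on the minus strand, Haao spans chr17:83831354-83846790 on the minus strand and Qprt spans chr7:127107770-127122029 on the minus strand. Kmo spans chr1:175632193-175660853 on the plus strand and Kynu spans chr2:43555325-43683048 on the plus strand. Afmid, at chr11:117825919-117839908 on the plus strand, shares 70.9% of its exon bases with Gm20708 and Tk1, so its counts are uncertain.

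The promoter stretches of 4 members are shown, Tdo2 and Haao because the results turn on them, and Kmo and Qprt as a middle step and the last step. Each runs from 250 bases upstream to the base before the RefSeq start site in GRCm38.p6, 5′ to 3′ on the gene's strand, and capitals mark an E-box (CANNTG), the motif class that HAND proteins bind with their partners. The intervals are chr3:81975729-81975978 and chr17:83846791-83847040 on the minus strand, chr1:175631943-175632192 on the plus strand and chr7:127122030-127122279 on the minus strand.
Tdo2: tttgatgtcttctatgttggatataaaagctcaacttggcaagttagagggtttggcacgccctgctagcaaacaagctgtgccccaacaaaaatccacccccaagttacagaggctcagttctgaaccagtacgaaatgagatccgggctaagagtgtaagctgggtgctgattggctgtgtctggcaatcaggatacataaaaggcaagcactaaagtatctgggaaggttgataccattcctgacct
Haao: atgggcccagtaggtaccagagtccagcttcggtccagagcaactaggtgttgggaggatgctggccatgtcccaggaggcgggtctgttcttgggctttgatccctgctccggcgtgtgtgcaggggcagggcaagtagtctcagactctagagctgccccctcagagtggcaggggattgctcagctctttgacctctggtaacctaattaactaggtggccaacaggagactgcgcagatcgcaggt
Kmo: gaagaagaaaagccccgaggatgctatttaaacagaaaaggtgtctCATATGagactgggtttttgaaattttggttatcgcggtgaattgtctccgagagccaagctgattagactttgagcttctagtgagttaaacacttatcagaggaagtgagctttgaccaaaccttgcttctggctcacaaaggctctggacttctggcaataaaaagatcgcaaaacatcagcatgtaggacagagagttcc
Qprt: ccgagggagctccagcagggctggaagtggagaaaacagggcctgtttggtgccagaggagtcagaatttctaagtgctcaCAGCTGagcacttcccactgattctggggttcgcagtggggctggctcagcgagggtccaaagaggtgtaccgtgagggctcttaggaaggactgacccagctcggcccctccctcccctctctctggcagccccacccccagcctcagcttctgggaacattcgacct
The search covered both strands, from 250 bases before to 50 after the start, in the 6 members with a RefSeq window, which Kynu lacks in the table used. Neither Tdo2 nor Haao held an E-box there. Kmo held CATATG at -204 and Qprt held CAGCTG at -169, counted from the start site, and 4 of the 6 members held at least 1, against 72.3% of 32851 such windows. The narrower E-box CATCTG, which is a special case of CANNTG, was in 17.2% of windows, the GATA motif AGATAA in 11.2% and the HNF4 half-site CAAAGTCC in 1.42%. None of these 3 was in a member's window, which says only that these letters are not in it.

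**Figure D1:**
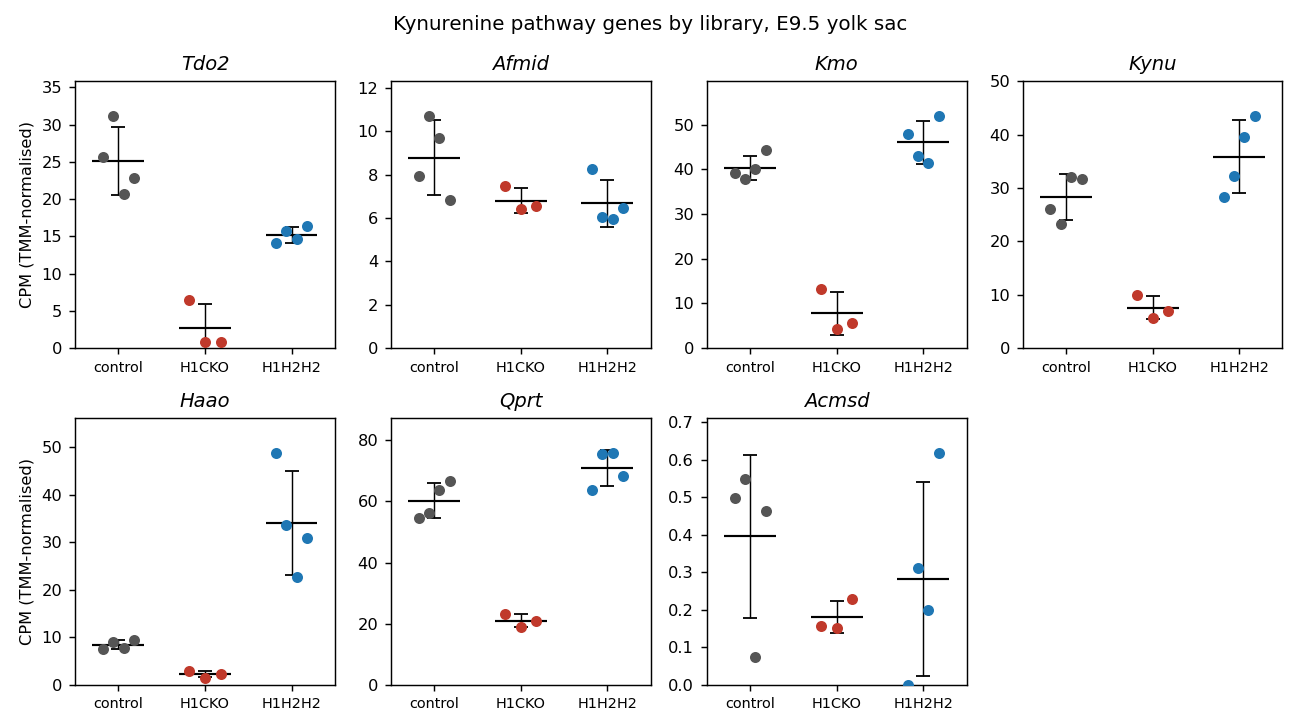
Level of each kynurenine pathway gene in every library, in CPM on axes that start at 0, with points for libraries, bars for the group mean and whiskers for the SD. The H1CKO libraries of Kmo, Kynu, Haao and Qprt lie below all others, and Haao in H1H2H2 lies between 22.7 and 48.9 CPM against 7.60 to 9.53 in control.

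The comparison of H1CKO with control asks what yolk sac RNA looks like when Hand1 is removed with T-Cre. The first enzyme had the widest gap. Tdo2 measured 25.6, 31.2, 20.7 and 22.8 CPM in controls 1 to 4, and 6.44, 0.764 and 0.763 CPM in H1CKO 5 to 7. All 3 H1CKO libraries lay below every control, and H1CKO 5 lay well above the other two. The difference was -3.24 on the log2 scale (SE 0.532), or 9.48-fold lower, the 13th lowest of 14671 genes tested. Without H1CKO 5 it was -5.04, so that library sets the size of the difference but not its direction. H1CKO 5 held trophoblast RNA and Xist. It also had the most visceral endoderm marker RNA of its group, at 17760 CPM against 10370 and 11060 in H1CKO 6 and 7. The part of each in its Tdo2 level was not tested. Tdo2 is also known from the decidua of the mouse. Prl8a2, a decidual prolactin gene, measured 4.26, 55.8, 3.72 and 0.662 CPM in control and 1.1, 0.153 and 0.229 CPM in H1CKO. Control 2 and H1CKO 5 were thus the highest of their groups in both Tdo2 and Prl8a2, and without both libraries the Tdo2 difference was -4.92. In H1H2H2 the highest values fell in different libraries, since H1H2H2 9 had 18.9 CPM of Prl8a2, against 1.06 to 2.06 in the rest of its group, and H1H2H2 11 had the most Tdo2. The decidual list without Hand2 (Prl8a2, Pgr, Wnt4, Hoxa10, Hoxa11 and Angpt4) summed to 11.1 to 77.3 CPM in control and 13.4 to 24.7 in H1CKO, with 1 of 6 up and 2 down past the threshold. Wnt4 rose by 1.25 on the log2 scale, while Prl8a2 fell by 5.02 and Angpt4 by 2.36. The sum thus joins genes that moved in opposite directions. The part of decidual RNA in the Tdo2 values was not tested.

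Afmid, the second step, was the exception. It measured 7.96, 10.7, 9.68 and 6.82 CPM in control and 7.46, 6.41 and 6.56 CPM in H1CKO, with overlapping libraries and a log2 difference of -0.37 (SE 0.188).

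The middle of the route was low throughout. Kmo measured 39.2, 37.8, 40.1 and 44.3 CPM in control and 13.3, 4.35 and 5.73 CPM in H1CKO, a difference of -2.38 (SE 0.282), or 5.19-fold lower. Kynu measured 26.1, 23.4, 32.2 and 31.6 CPM in control and 10.1, 5.73 and 7.02 CPM in H1CKO, a difference of -1.90 (SE 0.212), or 3.72-fold lower. In both genes the groups did not overlap and H1CKO 5 was again the highest of its group.

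Haao measured 7.60, 9.00, 7.82 and 9.53 CPM in control and 2.91, 1.53 and 2.37 CPM in H1CKO, a difference of -1.90 (SE 0.283), or 3.74-fold lower. Qprt, the last step, measured 54.7, 56, 63.6 and 66.7 CPM in control and 23.1, 19 and 21 CPM in H1CKO, a difference of -1.52 (SE 0.107), or 2.87-fold lower. Neither gene's groups overlapped, and Qprt was the most even of the members within H1CKO apart from Afmid.

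Of the 6 members tested, 5 were past an adjusted p of 0.05 and lower in H1CKO, where 25.6% of all genes were called lower and 27% higher, or 52.6% in all. The same 5 had libraries that did not overlap, as did 29.1% of all genes in that direction and 31.5% in the other. Because this contrast chose the members, nothing is read from the count. The median of the 6 members was -1.90 on the log2 scale, beside 0.03 for all genes tested.

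These values stand beside a smaller endoderm signal. Of 20 visceral endoderm markers, 19 fell in H1CKO and 1, Gata4, rose by 0.52, with a median of -1.63 (edgeR's quasi-likelihood test, adjusted p under 0.05). The markers included the secreted carriers Afp, Ttr, Apoa1, Apoa4, Apob, Apoc2, Apom, Rbp4 and Trf, the uptake receptors and adaptors Amn, Cubn, Lrp2 and Dab2, the transcription factors Hnf4a and Gata4, and Mttp, Soat2, Cldn2 and Slc39a5. Macrophage markers (Csf1r, Cx3cr1, Mrc1, Lyve1, Ptprc, Fcer1g, Tyrobp, C1qb and Cd68), from cells that also use the pathway, summed to 216 to 290 CPM in control and 63.6 to 90.4 in H1CKO, and 6 of 9 fell. Most of the sum was Mrc1 and Lyve1, with means of 76 and 132 CPM in control and 22.8 and 29.8 in H1CKO. Cx3cr1, Fcer1g and Tyrobp were not past the threshold. Trophoblast markers without Hand1 (Prl3d1, Prl2c2, Gcm1, Esx1, Rhox6 and Rhox9) summed to 54.9 to 168 CPM in control and 11.8 to 68.2 in H1CKO, and 3 of 6 fell. Those were Gcm1, Rhox6 and Esx1, the last with means of 35.1 CPM in control and 5.83 in H1CKO. Prl3d1, Prl2c2 and Rhox9 were not past the threshold. All 12 cardiac markers rose (Myh6, Myh7, Myl2, Myl3, Myl7, Tnnt2, Tnni1, Tnni3, Actc1, Nppa, Nkx2-5 and Ryr2), as did all 10 neural and somite markers, Sox2 and Pax3 among them. In bulk tissue, fewer cells of a type and less RNA per cell cannot be told apart, and the part of these shifts in the members' values was not tested.

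To set the members against the endoderm signal of the same library, the mean log2 CPM of the 20 markers was subtracted from each member's log2 CPM. On that scale Tdo2 measured -4.52, -4.13, -4.90 and -4.80 in control, -5.43, -7.56 and -7.67 in H1CKO, and -5.59, -5.41, -5.42 and -5.40 in H1H2H2. Both mutant groups lay wholly below control, by 2.30 and 0.87 as differences of means. Tdo2 was chosen with its low level in a mutant group in view, so its place below the markers is a description and nothing is read from it.

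Kmo, relative to the markers, was -3.89 ± 0.05 in control and -4.87 ± 0.43 in H1CKO (SD, n = 4 and 3), with no overlap. Kynu was -4.41 ± 0.13 and -4.78 ± 0.09 on the same scale, also with no overlap. Haao, at -6.12 ± 0.18 and -6.47 ± 0.25, overlapped. Qprt was level with the markers, at -3.32 ± 0.08 in control and -3.30 ± 0.27 in H1CKO. Afmid was higher relative to the markers in every H1CKO library, at -4.90 ± 0.28 against -6.09 ± 0.36.

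A rank among the markers uses the same libraries and markers, so it restates these values and is not a separate result. In H1CKO against control, 0 of the 20 markers had a lower log2 fold change than Tdo2 or Kmo, 4 had one lower than Haao, 4 lower than Kynu, 11 lower than Qprt and 19 lower than Afmid.

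**Figure D2:**
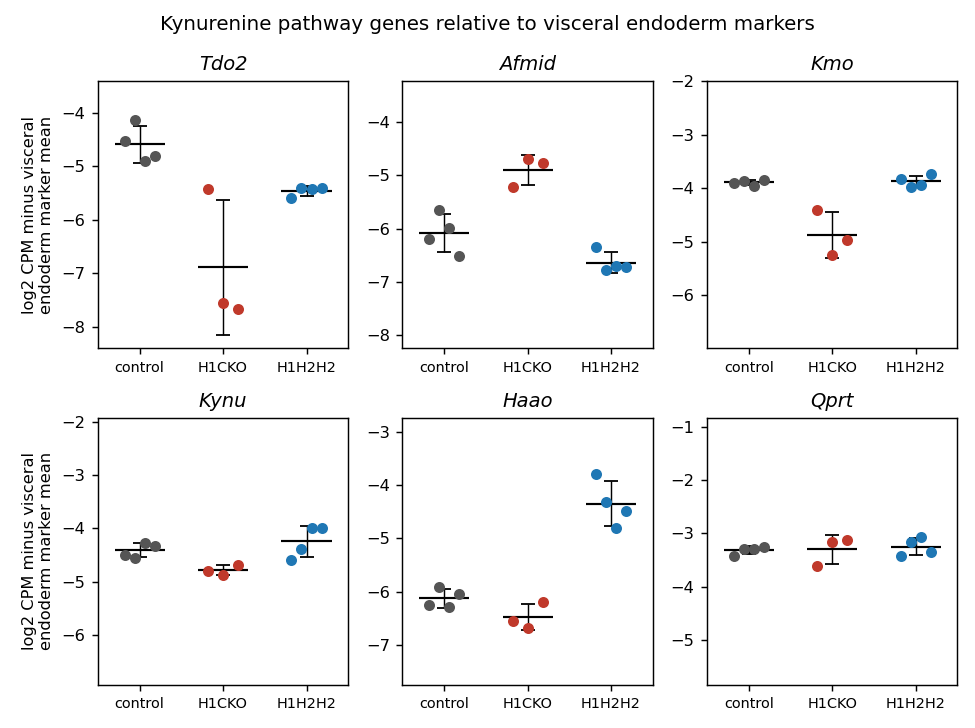
Level of 6 members relative to visceral endoderm markers, as log2 CPM minus the mean log2 CPM of 20 markers in the same library, with the group mean and SD and the same axis span in every panel. Tdo2 lies lower in both mutant groups than in control, Haao lies higher in H1H2H2 by 1.77, and Qprt stays near -3.3 in all 3 groups. Tdo2 and Haao were chosen with measured values in view.

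The comparison of H1H2H2 with control asks what changes when the Hand1 locus carries Hand2 in its place. It shares the 4 control libraries with the comparison above. Haao had the one large difference. It measured 48.9, 33.7, 22.7 and 31 CPM in H1H2H2 8 to 11, all above the control range of 7.60 to 9.53 CPM. The difference was 2.00 on the log2 scale (SE 0.221), or 4.01-fold higher, the 20th highest of 14671 genes. It was 1.76 without H1H2H2 8, the library with the highest value and the one in which Hand2 was at 81 CPM; the part of Hand2 in the Haao values was not tested.

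Tdo2 went the other way. It measured 14.1, 15.7, 14.7 and 16.4 CPM in H1H2H2, all below the lowest control at 20.7 CPM, with a difference of -0.72 (SE 0.407). The H1H2H2 libraries of Tdo2 were even, with a coefficient of variation of 6.86%, against 18.1% in control and 123% in H1CKO. The standard error comes from a dispersion shared by all 3 groups, and the call depends on it: without H1CKO 5 the difference was -0.72 and past the threshold.

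The other 4 tested members were close to control. Kmo measured 48.0, 43.0, 41.4 and 52 CPM, a difference of 0.19 (SE 0.227). Kynu measured 28.3, 32.3, 39.5 and 43.5 CPM, a difference of 0.34 (SE 0.176). Qprt measured 63.9, 75.7, 76.0 and 68.2 CPM, a difference of 0.24 (SE 0.0918). Afmid measured 8.26, 6.03, 5.95 and 6.47 CPM, a difference of -0.40 (SE 0.172). In each of these 4 genes the libraries overlapped with control.

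Of the 6 members, 1 was past the threshold in this contrast, Haao, where 9.49% of all genes were called higher and 7.16% lower, or 16.7% in all. Every library of Haao lay above control, which held for 11% of all genes, and every library of Tdo2 lay below, which held for 8%. Upper-quartile scaling turned the all-gene split from 1392 higher and 1051 lower to 1083 higher and 1330 lower. The count of members was 3 without H1H2H2 8, with Afmid at -0.53 and Qprt at 0.27 added. Since this contrast also chose the members, nothing is read from these counts. The members' median was 0.21 on the log2 scale, beside -0.01 for all genes tested.

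Haao and Tdo2 were chosen with measured values in view, so their places beside the endoderm markers are a description. Nothing is read from them. The visceral endoderm markers had a median of 0.14 in H1H2H2 against control, with a range of -0.17 to 0.79, and 3 of 20 rose. Haao lay above all 20 and Tdo2 below all 20. Macrophage markers summed to 222 to 247 CPM in H1H2H2, within the control range. Mrc1 and Lyve1 made up most of that sum, with means of 76 and 132 CPM in control and 75.1 and 127 in H1H2H2. The median log2 difference of the 9 macrophage markers was -0.35, and none was past the threshold. Trophoblast markers without Hand1 summed to 58.2 to 108 CPM. Relative to the markers, Haao was -4.35 ± 0.42 in H1H2H2 (SD, n = 4), which is 1.77 above control with no overlap.

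**Figure D3:**
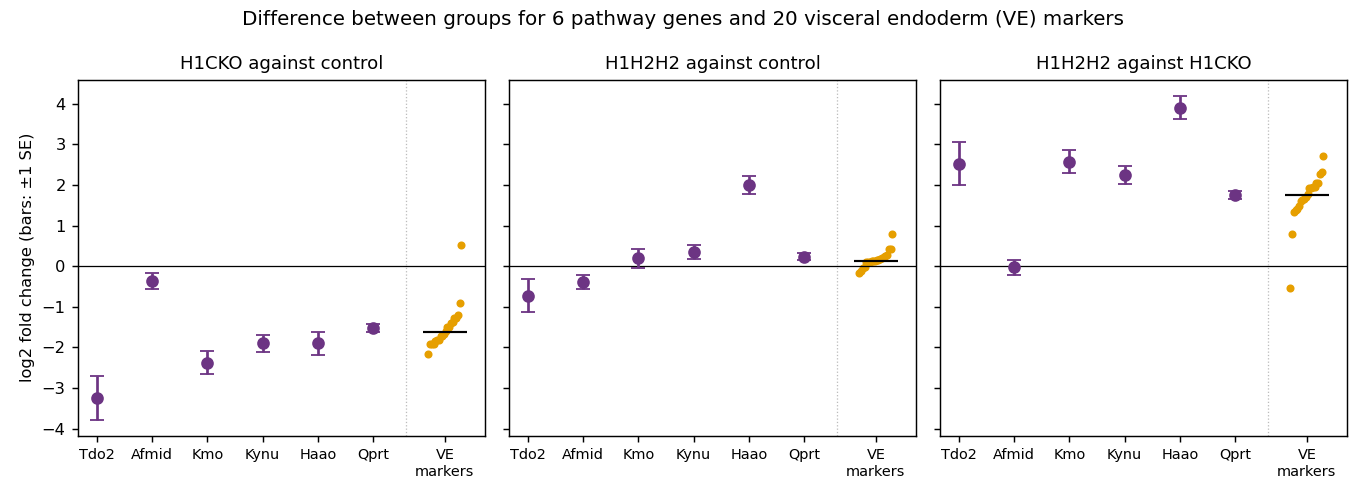
Log2 fold change of 6 members with bars of 1 SE in the 3 comparisons, beside the 20 visceral endoderm markers (small points, with a line at their median). Tdo2 at -3.24 and Kmo at -2.38 lie below all markers in H1CKO, and Haao at 2.00 lies above all markers in H1H2H2. Tdo2 and Haao were chosen with these differences in view.

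The direct comparison of H1H2H2 with H1CKO is the difference of the contrasts above, so it is described without a p-value. Haao differed most, at 3.91 on the log2 scale (SE 0.286), or 15-fold higher in H1H2H2, the 8th highest of 14671 genes. Kmo followed at 2.57 (SE 0.283), Tdo2 at 2.52 (SE 0.526), Kynu at 2.24 (SE 0.213) and Qprt at 1.75 (SE 0.107). In these 5 genes every H1H2H2 library lay above every H1CKO library. Afmid was level, at -0.03 (SE 0.188).

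Of the 6 members, these 5 were past the threshold and higher, where 31.8% of all genes were called higher and 33.3% lower, or 65% in all. Libraries did not overlap for 29.7% of all genes in that direction and 32.6% in the other. Nothing is read from the members' count here either. Of the visceral endoderm markers 19 rose in H1H2H2 against H1CKO, with a median of 1.75, the same as Qprt.

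Ratios between steps, per kilobase of transcript within 1 library, describe the balance along the route. Those that hold Haao or Tdo2 restate the levels that chose these genes, so nothing is read from their shifts. Kynu over Kmo, which holds neither, was 0.302 to 0.392 in control, 0.37 to 0.643 in H1CKO and 0.288 to 0.467 in H1H2H2. Haao over Kynu was 1.01 to 1.61 in control and 1.11 to 1.41 in H1CKO, so the ratio of these neighbouring steps lay within the control range when both were low. In H1H2H2 it was 2.40 to 7.22. Qprt over Haao was 6.37 to 8.32 in control, 8.13 to 12.7 in H1CKO and 1.34 to 3.43 in H1H2H2, where the 2 final steps came closest to each other.

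At the entry of the route, Tdo2 over Kmo lay below control in both mutant groups, again as a description. Tdo2 over Kmo was 0.789 to 1.26 in control, 0.204 to 0.742 in H1CKO and 0.448 to 0.560 in H1H2H2. Haao over Tdo2 was 0.385 to 0.557 in control and 2.06 to 4.65 in H1H2H2. In H1CKO it was 0.602 in the library with the most Tdo2, and 2.67 and 4.14 in the other two.

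Across the 11 libraries, Kynu and Qprt were the most alike pair of members, with a root mean square difference of 0.28 between their centred log2 CPM. Kmo and Kynu followed at 0.35. Haao and Tdo2 differed by 1.33, and Afmid and Tdo2 by 1.64, the least alike pair. These distances rest on the same libraries and depth for every gene and carry no test.

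The wider tryptophan and NAD genes were taken from 8 lists, written with earlier results of these data known. Of 70 genes listed, 57 were in the table and 56 were tested. In H1CKO against control 25 fell and 8 rose, which is 58.9% called where 52.6% of all genes were called. The lower share was 44.6%, where 25.6% of all genes were called lower, and the median was -0.35 beside 0.03 for all genes. In H1H2H2 against control 4 rose and 2 fell, or 10.7% called against 16.7% of all genes. Adjusted p-values below come from edgeR's quasi-likelihood test over all 14671 genes.

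The side arm that turns kynurenine into kynurenic acid was lower in H1CKO. Aadat, its main aminotransferase in mammals, measured 34.8 ± 5.02 CPM in control and 10.8 ± 3.75 in H1CKO (SD, n = 4 and 3), and fell by 1.69 on the log2 scale (SE 0.203, adjusted p = 3.45e-05). Ccbl2, another kynurenine aminotransferase, fell by 0.61 (adjusted p = 0.0218). Got2, the mitochondrial aspartate aminotransferase, fell by 0.43 (adjusted p = 0.00359), though its reads may be shared with Gm10874 and Got2-ps1. These were 3 of the 6 other kynurenine genes tested. Ido2, an alternative first enzyme, did not pass the test in any of the 3 comparisons, with means of 0.512, 0.544 and 0.868 CPM in control, H1CKO and H1H2H2.

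Of 11 genes for NAD salvage and its last steps, 4 fell in H1CKO and 1 rose. Those that fell were Nmrk1, a nicotinamide riboside kinase, by 1.75 on the log2 scale (SE 0.248, adjusted p = 0.000105), Nadsyn1, the NAD synthetase that completes the route from Qprt, by 0.89 (SE 0.107, adjusted p = 3.44e-05), Nadk, the kinase that makes NADP, by 0.67 (SE 0.0987, adjusted p = 0.000144), and Pnp, a purine nucleoside phosphorylase, by 0.40 (adjusted p = 0.00612). The gene that rose was Nampt, the rate-limiting enzyme of salvage from nicotinamide. It measured 78.2 ± 6.51 CPM in control, 140 ± 18 in H1CKO and 68.3 ± 13.1 in H1H2H2, and it rose by 0.84 (SE 0.134, adjusted p = 0.000242). In H1CKO Nampt was thus higher where the last synthesis step, Nadsyn1, was lower, but Nmrk1 and Pnp of the same list were lower too.

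Bst1, a cell-surface enzyme that splits NAD, changed in both mutant groups in opposite directions. It measured 5.83 to 9.38 CPM in control, 1.76 to 3.93 in H1CKO and 16.6 to 21.2 in H1H2H2, with no overlap among the 3 groups. It fell by 1.67 on the log2 scale in H1CKO (SE 0.273, adjusted p = 0.000296) and rose by 1.2 in H1H2H2 (SE 0.223, adjusted p = 0.00839). Both calls held under all 22 alternative settings. Bst1 thus showed the same order of groups as Haao.

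Among the 14 NAD consumers as a whole, 4 fell and 4 rose in H1CKO. Cd38, a relative of Bst1, fell by 0.70 (adjusted p = 0.00369). Its means were 22.25 CPM in control, 13.67 in H1CKO and 30.68 in H1H2H2, the same order of groups as Bst1. Sirt2, a deacetylase, fell by 0.53 (adjusted p = 0.00129). Sarm1, the axonal NAD-splitting enzyme, rose by 1.68 (SE 0.506, adjusted p = 0.0143) at low counts. It had 1 to 9 reads per control library and 16 to 17 per H1CKO library. Neural markers also rose in that group, and their part was not tested. Tnks, a tankyrase, rose by 0.58 (adjusted p = 3.3e-05).

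Of 8 genes for tryptophan transport and charging, 4 fell in H1CKO. Slc6a19, the neutral amino acid carrier of absorbing epithelia, fell by 1.82 (SE 0.301, adjusted p = 0.000317), and Slc7a8, a light chain of the exchangers that carry tryptophan, by 1.56 (SE 0.193, adjusted p = 4.16e-05). Slc16a10, the aromatic amino acid carrier, fell by 0.92 (SE 0.147, adjusted p = 0.000246). Slc3a2, the heavy chain shared by the exchangers, fell by 0.83 (SE 0.0935, adjusted p = 2.29e-05).

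In the serotonin branch 3 of 4 fell in H1CKO. Slc6a4, the serotonin transporter, measured 30.2 ± 1.18 CPM in control and 7.52 ± 4.37 in H1CKO, and fell by 2.01 (SE 0.278, adjusted p = 8.92e-05). Maob, a monoamine oxidase, fell by 1.05 (adjusted p = 3.89e-05). Ddc, which makes serotonin from 5-hydroxytryptophan, fell by 0.42 in H1CKO (adjusted p = 0.00183) and rose by 0.42 in H1H2H2 (SE 0.0802, adjusted p = 0.0093).

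All 5 genes tested for phenylalanine and tyrosine breakdown, the neighbouring aromatic route, fell in H1CKO, with a median of -0.78. Hgd, homogentisate dioxygenase, measured 11.5 to 16.3 CPM in control and 1.07 to 3.46 in H1CKO, and fell by 2.88 (SE 0.359, adjusted p = 4.35e-05). Pcbd1, which recycles the cofactor of phenylalanine hydroxylation, fell by 1.37 (adjusted p = 8.96e-06). Gstz1, a late step, fell by 0.72 (adjusted p = 7.37e-05) and Qdpr, another enzyme of cofactor recycling, by 0.56 (adjusted p = 0.0367).

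The vitamin B6 and Ah receptor genes split. Pdxk, the kinase that makes the active form of vitamin B6, fell by 1.42 in H1CKO (adjusted p = 1.47e-05), and Pdxp, a phosphatase of that form, rose by 2.10 (adjusted p = 1.67e-05), both with exons shared with another gene. Ahr, the receptor that kynurenine can activate, fell by 0.34 in H1CKO (adjusted p = 0.0103) and by 0.36 in H1H2H2 (adjusted p = 0.0212, over 0.05 in 4 of the 22 alternatives). Cyp1b1, a target of that receptor also made by mesenchyme, measured 1.56 to 3.20 CPM in control, 23.1 to 30.2 in H1CKO and 0.124 to 2.05 in H1H2H2, and rose by 3.50 in H1CKO (SE 0.459, adjusted p = 6.12e-05). Tiparp, another target, rose by 0.32 in H1CKO (adjusted p = 0.00154).

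**Figure D4:**
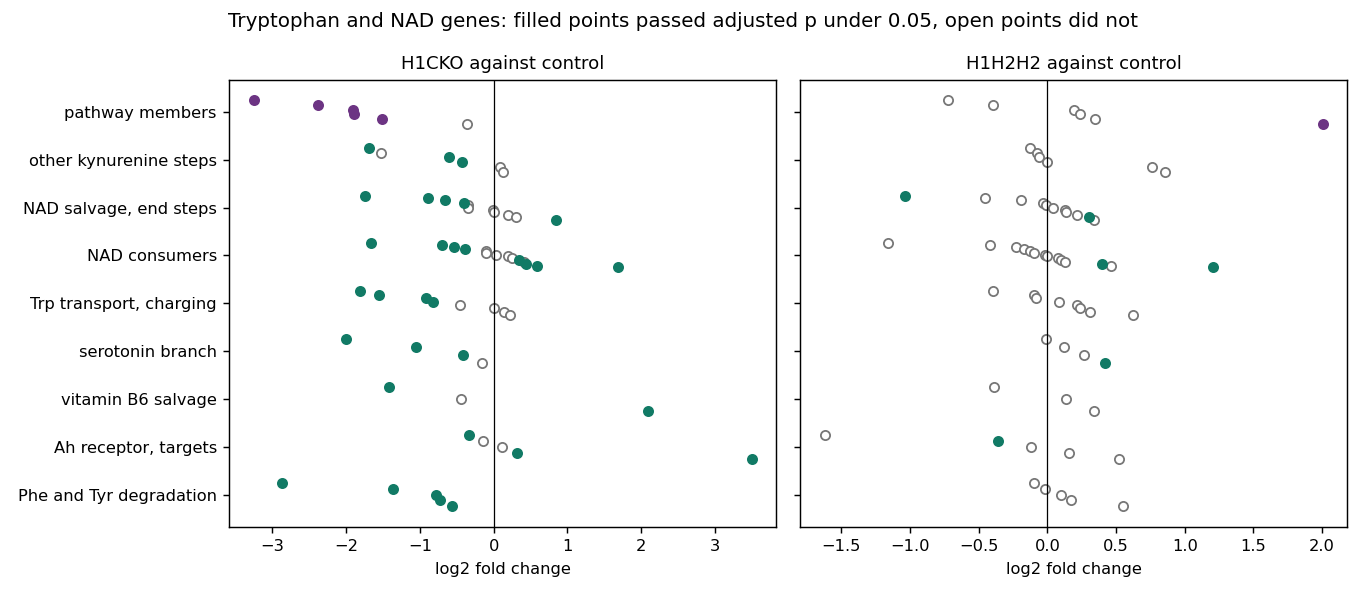
Log2 fold change against control of the pathway members and of 8 lists of related genes, 1 point per gene, filled where the adjusted p was under 0.05 and open where it was not; the vertical offsets within a row only separate points. Most filled points in H1CKO lie below 0, with Cyp1b1 at 3.50 and Pdxp at 2.10 on the other side, and Haao at 2.00 is the point farthest to the right in H1H2H2.

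The remaining calls in H1H2H2 were Tnks2, a tankyrase, which rose by 0.40 (adjusted p = 0.0169), Nadk, which rose by 0.30 (adjusted p = 0.0392), and Nmnat2, an enzyme of NAD synthesis in neurons, which fell by 1.03 (adjusted p = 0.0458). Several others of the best-ranked genes in that comparison missed the threshold. Cd38 differed by 0.46 (adjusted p = 0.0503) and Slc6a19 by 0.62 (adjusted p = 0.0956), each with every H1H2H2 library above every control. Cyp1b1 differed by -1.62 (adjusted p = 0.0523) and Qdpr by 0.55 (adjusted p = 0.06), both with overlapping libraries. Nmnat1, the nuclear NAD synthesis enzyme, differed by -0.46 (adjusted p = 0.0514), with every H1H2H2 library below every control. Aldh8a1, which acts on the Acmsd branch, differed by 0.85 (adjusted p = 0.303), Ccbl1, an aminotransferase, by -0.13 (adjusted p = 0.649), Wars, the tryptophan tRNA ligase, by 0.21 (adjusted p = 0.127), Maoa by 0.12 (adjusted p = 0.454) and Nqo1, a quinone reductase, by 0.52 (adjusted p = 0.206). Of the called genes, Nadk lost its call in 13 of the 22 alternatives, Nmnat2 in 12, Ahr in 4 and Tnks2 in 2, while Bst1 and Ddc kept theirs. With a term for sex, Ahr had an adjusted p of 0.0607 and Tnks2 one of 0.0574. The count of 6 genes was 3 without control 3, 3 without H1H2H2 11 and 12 without H1H2H2 8.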

How the data were processed

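Whole yolk sac RNA was sequenced in 11 libraries: 4 control, 3 H1CKO and 4 H1H2H2, grouped by genotype label. The sources list mm10, STAR 2.5.2b, featureCounts, Subread 1.5.1 and edgeR, per the submitters' processing notes, which give them no role. The raw read count of each gene per library was deposited by the authors without normalisation, per the file headers. The authors also deposited log2 FPKM values, which were not used, and a log2 fold change, p-value and FDR for each comparison. In the authors' deposited table the calls of the 6 tested members were the same as here in 18 of 18 comparisons, and the log2 fold changes were within 0.045. Those values rest on the same libraries, and the submitters also list edgeR, so the match is not a separate result.

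The test was run in R 4.3.3 with edgeR 4.0.16. filterByExpr left 14671 of 15061 genes, TMM factors scaled the libraries, and 1 quasi-likelihood model held all 11 libraries, with p-values adjusted by Benjamini and Hochberg over all genes at 0.05. CPM are TMM-scaled, log2 CPM used a prior count of 2, and each SE was taken from the fold change on the log2 scale divided by the square root of the F statistic. The common dispersion gave a biological coefficient of variation of 0.171. The members and all lists were chosen with earlier results of these data known. Beside the members, up to 3 genes with the smallest p per list and comparison were named, and for Tdo2 and Haao the 4 genes nearest in log2 CPM. Pnp, Sarm1, Prl3d1, Prl8a2 and Xist were singled out after their values were seen. Near copies were sought with BLAST+ 2.17.0. The code was tested on simulated data. Alternatives were run with limma 3.58.1, DESeq2 1.42.0 and other scalings, filters and library sets. Genes not in the table were not analysed here, and some genes that the rule names are not reported here.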

Additional observations from a re-analysis of the deposited data

Results flagged for a closer look

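Each group of 4 libraries was searched for a library far from the other 3, over 50 genes and 100 groups, and 4 were found, where chance gives about 1 in 20 groups. No kynurenine pathway member was among them. Nmnat2 measured 2.27 CPM in H1H2H2 11 and 0.995 to 1.12 in the other H1H2H2 libraries. Tnks measured 191 CPM in control 1 and 172 to 175 in the other controls. Slc16a10 measured 64.4 CPM in H1H2H2 8 and 87.8 to 90.0 in the rest of its group. Maoa, a monoamine oxidase, measured 27 CPM in control 4 and 31.4 to 31.5 in the other controls.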

How the results depend on the processing

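The members' log2 fold changes were recomputed under 22 alternatives. Over the 3 comparisons, 379 values kept their direction and side of the threshold, 7 passed it only in the alternative and 10 changed sign, all 10 of them Afmid in H1H2H2 against H1CKO. Afmid there was -0.03 and became 0.00653 with no filter on low counts, 0.00205 with only the 2 groups fitted and 0.0176 when sex was a term. It was 0.0559 without control 2 and H1CKO 5 and -0.14 with upper-quartile scaling. Over all 22 alternatives it ran from -0.14 to 0.0564. Leaving out control 2 and H1CKO 5 together was chosen after seeing the data. Haao in H1H2H2 against control ran from 1.76 to 2.16 over these settings, given as a description because that contrast chose the members. Tdo2 in the same comparison was past the threshold with limma-voom (-0.71), with 2 groups fitted (-0.73), without H1CKO 5 (-0.72) and without control 2 and H1CKO 5 (-0.60). The 1 member called there became 2 with limma-voom, with 2 groups fitted and without control 2 and H1CKO 5, and ran from 1 to 3 as single libraries were left out. The 6 other pathway genes called there became 12 with DESeq2 and 2 with a term for sex, and ran from 3 to 12 as single libraries were left out. The 2443 genes called there became 808 with a term for sex, 1134 with control 1 and control 2 summed and 1097 without control 2 and H1CKO 5, and ran from 694 to 5055 as single libraries were left out. The causes were not tested. Upper-quartile scaling moved the median of all genes in H1H2H2 against H1CKO from -0.03 to -0.14. No paired analysis was possible because the groups share no replicate numbers. At this depth Acmsd was too low to compare.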

Other observations

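The genes whose centred log2 CPM over the 11 libraries lay nearest to a member were listed among 12461 genes with a mean of at least 1 CPM. For Haao they were Xkr9 and Bst1, each at a root mean square difference of 0.52, Chst13, a chondroitin sulfotransferase, at 0.56, and Abcb1b, a drug efflux pump with the near copy Abcb1a, at 0.57, beside a median of 1.56 over all genes. Abcb1b measured 16.98 ± 1.99 CPM in control, 3.86 ± 0.96 in H1CKO and 33.7 ± 3.79 in H1H2H2 (SD, n = 4, 3 and 4). Chst13 measured 4.71 ± 0.29, 1.19 ± 0.77 and 9.77 ± 1.43 CPM in the same groups. Both were lowest in H1CKO and highest in H1H2H2, as Haao was.

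For Tdo2 the nearest were Fcgr3, an Fc receptor of myeloid cells with the near copy Fcgr2b, at 0.53, Hgd at 0.57, Aass, the first enzyme of lysine breakdown, at 0.61, and Fam20a at 0.67, beside a median of 1.75. Aass measured 192 ± 8.84 CPM in control, 31.4 ± 20.4 in H1CKO and 228 ± 24.4 in H1H2H2, so it did not share the lower Tdo2 level of H1H2H2. These likenesses were found by search and carry no test.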
